A study of Mus musculus with 10 samples.

Results

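Complement components and receptors were followed here as 9 genes, C1qa, C1qb, C1qc, C4b, C3, Serping1, C3ar1, C5ar1 and Itgam, taken by symbol from a table of 31510 genes. All 9 were in the table, and all 9 passed the filter on low values, among 17556 genes that did. The hippocampi came from male APP/PS1 mice, an Alzheimer model that carries mutant human amyloid precursor protein and presenilin transgenes and deposits amyloid. In the AAV8-Irisin-FLAG group, 5 mice were given an adeno-associated virus of serotype 8 carrying FLAG-tagged irisin, the secreted part of the muscle protein FNDC5, and in the AAV8-GFP group 5 mice were given the same kind of virus carrying green fluorescent protein. The injection went into the tail vein at 8 months of age, so that the liver would make irisin and release it into the blood, and tissue was taken 2 months later. Both groups carried the APP/PS1 transgenes, no mouse without them was among the samples, and the promoter of the vector is not given in the sources used here.

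Complement is a cascade of plasma proteins that brain cells also make. In the classical pathway, C1q binds a surface such as amyloid or a synapse and leads to the cutting of C4 and then of C3, whose fragments stay on the surface as tags for phagocytes or leave as soluble signals. Microglia, the resident macrophages of the brain, make C1q and carry the receptors for those fragments, and in mouse models of amyloid deposition complement has been studied for its part in synapse loss and in the handling of plaques.

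The question put to these samples was whether irisin delivered in the periphery changed the hippocampal transcriptome, here its complement genes. None of the 9 genes differed between the groups beyond the spread between mice. Mean log2 values in AAV8-Irisin-FLAG mice, turned back to percent, lay between 10.9% below those of AAV8-GFP mice (C1qc) and 9.69% above them (C3). C1qa, C1qb, C1qc, C4b, C3ar1, C5ar1 and Itgam had the lower mean log2 value in AAV8-Irisin-FLAG mice, and C3 and Serping1 the higher. From mouse to mouse, the 3 C1q chains, C4b and C3ar1 varied together, in every pair but C4b with C3ar1, while no pair that held C3, C5ar1, Itgam or Serping1 passed the test of correlation.

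Values are normalised counts, that is read counts that the authors divided by a size factor for each library. The deposited totals were 35300000 to 36600000 per library, and the low values put the depth at about 30700000 to 41500000 reads. The dissected tissue carried its defining RNA, since the dentate and CA field genes Prox1, C1ql2, Wfs1, Fibcd1 and Grik4 had means from 2577 to 6679 in AAV8-Irisin-FLAG mice and from 2648 to 7156 in AAV8-GFP mice. Hippocampal Fndc5, which does not report on a virus meant to act in the liver, averaged 2479 ± 104 and 2610 ± 74.0 (SD, n = 5 each) in AAV8-Irisin-FLAG and AAV8-GFP mice. Choroid plexus genes were uneven: their summed level was 3036 in AAV8-Irisin-FLAG mouse 4, against 1135 to 1306 in the other AAV8-Irisin-FLAG mice and 891.8 to 1169 in AAV8-GFP mice. Outside that mouse, most of the sum was Kl, which ran from 788 to 920 in AAV8-Irisin-FLAG and 650 to 879 in AAV8-GFP mice. Ttr, of the same list, was at 1528 in AAV8-Irisin-FLAG mouse 4. It was at 12.3 to 162 in the other AAV8-Irisin-FLAG mice and 10.1 to 48.3 in AAV8-GFP mice. Of the 17556 genes tested with limma on log2(normalised count + 1), 0 (0%) had an adjusted p under 0.05, the smallest adjusted p was 0.942, and 788 (4.49%) had an unadjusted p under 0.05. The median log2 difference over all genes tested was 0.000986.

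Of the 9 complement genes, 0 had an adjusted p under 0.05 in limma and 0 an unadjusted p under 0.05. Their median log2 difference was -0.088, and 7 of 9 had a lower mean in AAV8-Irisin-FLAG mice, where 49.5% of all genes tested did. Leaving out 1 mouse at a time gave 6 or 7 lower means and a median from -0.20 to -0.041. Without AAV8-Irisin-FLAG mice 4 and 5, the lowest in C1qa, 5 of 9 had a lower mean, the median was -3.2e-05, and the differences were -0.019 for C1qa, -3.2e-05 for C1qb and -0.041 for C1qc. Those mice were the lowest of their group in each C1q chain, so leaving them out raises its C1q means by construction. The change shows which mice the values rest on and is no test. The groups overlapped for each of the 9 genes, whereas they did not overlap for 141 (0.803%) of all genes tested. The genes varied together across mice, as described further on, so the 7 lower means are not separate observations.

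**Figure D1:**
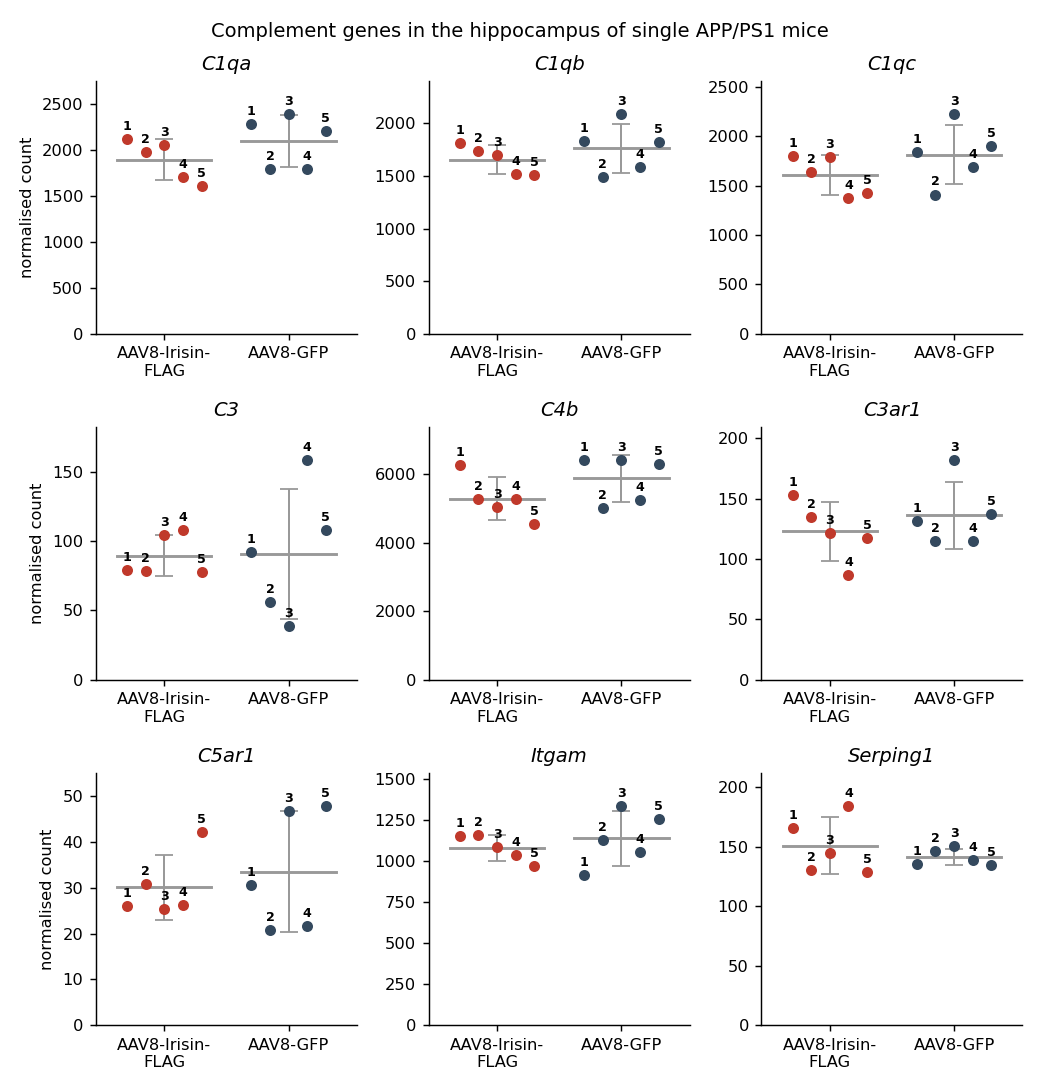
Normalised counts of the 9 complement genes (y axes from 0) in 5 AAV8-Irisin-FLAG mice (left in each panel) and 5 AAV8-GFP mice (right), with mouse numbers at the points and grey lines for mean and SD. The groups overlap in every panel, AAV8-Irisin-FLAG mice 4 and 5 have the lowest C1qa values, and C3 spreads from 38.7 to 159 among AAV8-GFP mice.

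Per kilobase of annotated exon, which allows genes to be set side by side within a library, C1qa and C1qb had the highest levels of the 9 genes. The median over the 10 mice was 1939 normalised counts per kilobase for C1qa, 1581 for C1qb, 928 for C4b and 902 for C1qc. Itgam followed at 220.5, Serping1 at 61.0, C3ar1 at 29.4, C3 at 16.6 and C5ar1 at 11.1. The ranges over mice of neighbours in this order overlapped for C1qa and C1qb, for C4b and C1qc, for C3ar1 and C3, and for C3 and C5ar1, so across mice those neighbours did not separate beyond their spread. Within a mouse, C1qa was above C1qb in all 10 mice, and C4b was above C1qc, C3ar1 above C3, and C3 above C5ar1 in 8 of 10 mice each. With the longest annotated transcript as the length, C1qc (1447) came before C4b (983), and the rest of the order stayed as given. The transcript of C3, the protein on which the pathways of complement meet, was thus close in level to those of the 2 anaphylatoxin receptors and far below those of C1q and C4b.

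**Figure D2:**
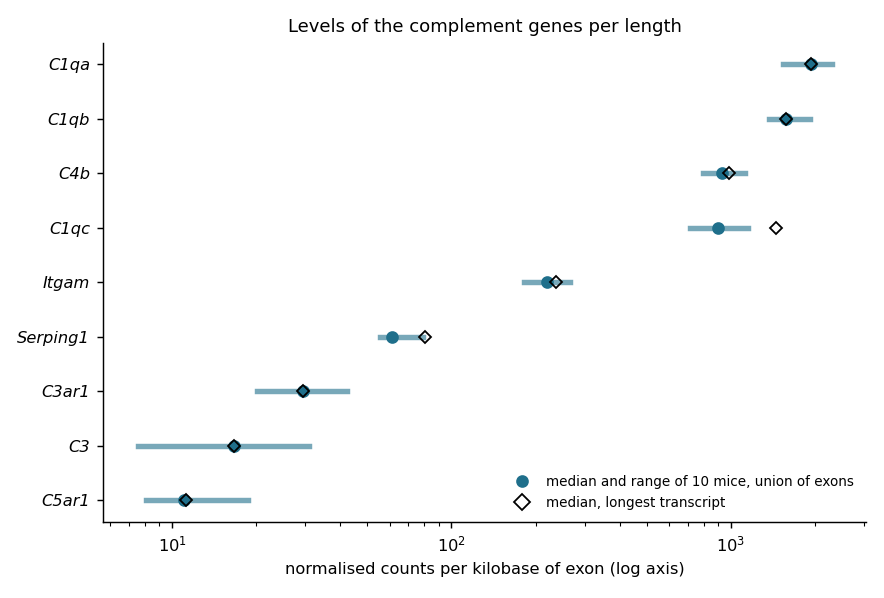
Normalised counts per kilobase of exon (x axis, log scale) for the 9 complement genes, as the median (filled point) and range (bar) of the 10 mice of both groups, with open diamonds for the median when the longest transcript is the length. C1qa (1939) and C1qb (1581) lead, and C3ar1 (29.4), C3 (16.6) and C5ar1 (11.1) lie lowest with overlapping ranges between neighbours.

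The proximal promoters of 4 of these genes are given because C1qb, C1qc and C3ar1 varied together across mice and C3 did not. They are RefSeq sequences on build GRCm38.p6, from 250 bases before to 50 bases after the RefSeq gene start, all on the minus strand. Capitals mark AGGAAG or its opposite strand CTTCCT, a core that factors of the ETS family such as the macrophage factor PU.1 can bind. C1qb is shown from chr4:136886151-136886450, C1qc from chr4:136892865-136893164, C3ar1 from chr6:122856108-122856407 and C3 from chr17:57228087-57228386.
C1qb: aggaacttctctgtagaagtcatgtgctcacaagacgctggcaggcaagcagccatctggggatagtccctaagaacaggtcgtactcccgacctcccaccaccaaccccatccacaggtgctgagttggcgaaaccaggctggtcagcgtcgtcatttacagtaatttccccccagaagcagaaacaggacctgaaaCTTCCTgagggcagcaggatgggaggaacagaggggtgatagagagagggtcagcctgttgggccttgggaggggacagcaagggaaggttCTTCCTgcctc
C1qc: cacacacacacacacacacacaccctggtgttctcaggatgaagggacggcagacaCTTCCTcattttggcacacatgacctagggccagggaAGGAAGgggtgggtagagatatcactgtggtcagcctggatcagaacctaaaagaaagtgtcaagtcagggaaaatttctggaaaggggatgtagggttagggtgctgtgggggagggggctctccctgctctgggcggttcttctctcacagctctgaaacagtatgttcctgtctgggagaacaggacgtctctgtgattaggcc
C3ar1: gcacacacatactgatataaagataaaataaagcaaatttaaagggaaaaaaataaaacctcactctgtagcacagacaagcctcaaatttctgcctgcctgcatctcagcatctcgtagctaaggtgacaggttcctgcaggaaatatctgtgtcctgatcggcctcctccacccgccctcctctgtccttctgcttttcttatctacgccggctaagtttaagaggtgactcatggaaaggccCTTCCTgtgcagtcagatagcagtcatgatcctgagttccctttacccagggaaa
C3: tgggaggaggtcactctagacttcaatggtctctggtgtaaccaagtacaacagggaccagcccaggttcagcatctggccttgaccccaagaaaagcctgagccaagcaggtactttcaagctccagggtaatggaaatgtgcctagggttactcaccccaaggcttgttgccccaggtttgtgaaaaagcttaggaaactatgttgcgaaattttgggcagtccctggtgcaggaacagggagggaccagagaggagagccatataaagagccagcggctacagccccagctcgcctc
Of the 9 genes, 6 matched a RefSeq promoter (C1qb, C1qc, C3, C3ar1, C5ar1 and Itgam). The letters were found in 5 of those 6, at -52 and 40 from the gene start in C1qb, -194 and -157 in C1qc, -5 in C3ar1, -189, -71 and -67 in C5ar1, and -83 and 32 in Itgam, where the last pair in C5ar1 overlaps. The window of C3 did not hold them. C5ar1 and Itgam, which were in no correlated pair, thus held the letters too, while C1qa and C4b, which varied with C1qb, had no promoter to look at. A relation between the letters and the correlations was not tested. The letters occur in 11613 of 32851 promoters of the same length (35.4%), and a match is a run of letters and not a binding site. Positions count from the RefSeq gene start. In GENCODE M21, C5ar1 starts further upstream, at 16259540, and C1qc at 136893065. The C5ar1 matches thus lie inside the GENCODE gene, and the C1qc matches lie nearer to the GENCODE start than their positions say.

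The genes for the 3 chains of C1q, the recognition protein of the classical pathway, lie side by side on the minus strand of chromosome 4 in the GENCODE M21 annotation of GRCm38: C1qb (ENSMUSG00000036905.8) at 136880129 to 136886187, C1qc (ENSMUSG00000036896.5) at 136889804 to 136893065 and C1qa (ENSMUSG00000036887.5) at 136895917 to 136898803. C1qa had 2114, 1981, 2053, 1708 and 1604 normalised counts in AAV8-Irisin-FLAG mice 1 to 5, against 2285, 1789, 2391, 1793 and 2202 in AAV8-GFP mice 1 to 5. AAV8-Irisin-FLAG mice 4 and 5 were below every AAV8-GFP mouse, AAV8-GFP mice 1, 3 and 5 were above every AAV8-Irisin-FLAG mouse, and the groups overlapped between. The means were 1892 ± 223.5 and 2092 ± 283 (SD, n = 5 each), a log2 difference of -0.14 (SE 0.095, 95% interval -0.35 to 0.061) with a limma adjusted p of 0.942. An exact two-sided permutation test of the single gene gave p = 0.262, in a design whose smallest possible value is 0.00794.

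C1qb, the second chain, had 1812, 1741, 1699, 1517 and 1506 normalised counts in AAV8-Irisin-FLAG mice and 1830, 1487, 2090, 1585 and 1821 in AAV8-GFP mice. The lowest value of all was that of AAV8-GFP mouse 2, and the highest that of AAV8-GFP mouse 3. The group means of C1qb were 1655 ± 137 and 1763 ± 236 in AAV8-Irisin-FLAG and AAV8-GFP mice, with a log2 difference of -0.085 (SE 0.083, 95% interval -0.26 to 0.094, limma adjusted p = 0.942). C1qc, the third chain, had 1802, 1641, 1795, 1377 and 1429 in AAV8-Irisin-FLAG mice and 1843, 1412, 2228, 1688 and 1904 in AAV8-GFP mice. All 5 AAV8-Irisin-FLAG mice were below the mean of the AAV8-GFP mice, yet AAV8-GFP mouse 2 was lower than 4 of them. For C1qc the difference was -0.17 on the log2 scale (SE 0.11, 95% interval -0.40 to 0.062, limma adjusted p = 0.942). In percent, these intervals reach from 21.3% lower to 4.30% higher for C1qa, from 16.7% lower to 6.74% higher for C1qb and from 24.0% lower to 4.42% higher for C1qc in AAV8-Irisin-FLAG mice. The chains kept close proportions per length: C1qb over C1qa was 0.839 ± 0.039 in AAV8-Irisin-FLAG mice and 0.806 ± 0.033 in AAV8-GFP mice, and C1qc over C1qa was 0.458 ± 0.018 and 0.467 ± 0.038 in AAV8-Irisin-FLAG and AAV8-GFP mice.

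In bulk tissue, fewer cells of a type and less RNA per cell cannot be told apart, so C1q was set beside 16 other microglial genes. All 16 had a lower mean in AAV8-Irisin-FLAG mice, with a median log2 difference of -0.072 and none past the adjusted threshold. Their summed level ran from 20241 to 25113 in AAV8-Irisin-FLAG mice and from 21211 to 28242 in AAV8-GFP mice, and none of them was at 0 in any mouse. Within AAV8-Irisin-FLAG mice, the lowest sums were again those of mice 4 and 5, at 20403 and 20241. Single genes of that list ran from -0.22 (Trem2) to -0.019 (P2ry12). The list holds Tyrobp and Trem2, which were among the genes nearest to C1q across mice (r = 0.981 and 0.943). Taking its mean away thus removes part of any difference that C1q shares with them, by construction. Relative to the mean log2 level of that list, C1qa differed by -0.048 between the groups (95% interval from exact permutation -0.23 to 0.10, p = 0.659). C1qb differed by 0.010 (interval -0.12 to 0.12, exact p = 0.897) and C1qc by -0.072 (interval -0.22 to 0.094, exact p = 0.310). Leaving out each mouse in turn gave C1qc values from -0.13 to -0.034. The value of -0.13 came without AAV8-GFP mouse 2, which held the lowest relative C1qc level of that group. Its exact permutation p was 0.0317, adjusted neither over the 6 genes compared in this way nor over the mice left out. Leaving out the lowest mouse of the higher group widens the difference by construction, so no conclusion is drawn from that p. Of 21 measured genes known to rise in plaque-associated microglia, 18 had a lower mean in AAV8-Irisin-FLAG mice, none past the threshold.

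C4b (ENSMUSG00000073418.4, chromosome 17, 34728380 to 34743882, minus strand) encodes complement C4, the protein that C1q-bound proteases cut next, and in amyloid models it is known from reactive astrocytes and oligodendrocytes. It had 6261, 5289, 5035, 5286 and 4536 normalised counts in AAV8-Irisin-FLAG mice, against 6408, 5012, 6422, 5261 and 6297 in AAV8-GFP mice. AAV8-GFP mice 1, 3 and 5 lay above every AAV8-Irisin-FLAG mouse, AAV8-Irisin-FLAG mouse 5 lay below every AAV8-GFP mouse, and the rest overlapped. Means were 5281 ± 628 in AAV8-Irisin-FLAG mice and 5880 ± 686 in AAV8-GFP mice, with a log2 difference of -0.15 (SE 0.085, 95% interval -0.34 to 0.028). That was the smallest unadjusted p of the 9 genes (0.0916), and the limma adjusted p was 0.942. C4b shares 34.6% of its 50-base windows with C4a, the neighbouring copy, so reads could have been split between them. C4a itself averaged 90.3 ± 6.86 normalised counts in AAV8-Irisin-FLAG mice and 115 ± 29.8 in AAV8-GFP mice (log2 difference -0.30, limma adjusted p = 0.942), and per length it was 0.0158 and 0.0178 of C4b in those groups.

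C3 (ENSMUSG00000024164.15, chromosome 17, 57203970 to 57228136, minus strand) encodes the central component, whose fragments opsonise targets. Its values were 79.4, 78.6, 104, 108 and 77.8 normalised counts in AAV8-Irisin-FLAG mice and 91.8, 55.8, 38.7, 159 and 108 in AAV8-GFP mice. The AAV8-Irisin-FLAG values all lay inside the range of the AAV8-GFP values, which held the lowest (mouse 3) and the highest (mouse 4) of all. Arithmetic means were close, 89.6 ± 15.1 in AAV8-Irisin-FLAG mice and 90.6 ± 47.0 in AAV8-GFP mice, and the difference of mean log2 values, 0.13 (SE 0.29, 95% interval -0.50 to 0.76), had the other sign and a limma adjusted p of 0.967. The within-group SD of C3 on the log2 scale, 0.58, was above that of 96.9% of genes tested, so changes from 29.1% lower to 69.6% higher are within its interval. Without AAV8-GFP mouse 3 the log2 difference was -0.13, of the opposite sign.

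Serping1 (ENSMUSG00000023224.12, chromosome 2, 84765387 to 84775444, minus strand) encodes C1 inhibitor, which blocks the proteases that C1q carries. It had 166, 131, 145, 184 and 129 normalised counts in AAV8-Irisin-FLAG mice and 136, 146, 151, 139 and 134 in AAV8-GFP mice. Here the AAV8-Irisin-FLAG mice were the more spread, with mice 1 and 4 above and mice 2 and 5 below every AAV8-GFP mouse. The means were 151 ± 23.8 and 141 ± 7.08 in AAV8-Irisin-FLAG and AAV8-GFP mice, with a log2 difference of 0.082 (SE 0.11, 95% interval -0.15 to 0.31, limma adjusted p = 0.952). AAV8-Irisin-FLAG mouse 4, the highest in Serping1, was also the highest in summed meningeal fibroblast genes (3885, against 2458 to 3654 in the other 9 mice) and in choroid plexus genes, and without it the log2 difference was 0.0060. The part of those cells in the Serping1 values was not tested.

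Among the receptors, C3ar1 (ENSMUSG00000040552.8, chromosome 6, 122847138 to 122856161, minus strand) binds the soluble signal cut from C3. It had 153, 135, 122, 87.0 and 118 normalised counts in AAV8-Irisin-FLAG mice and 131, 115, 182, 115 and 137.5 in AAV8-GFP mice. AAV8-Irisin-FLAG mouse 4 was the lowest and AAV8-GFP mouse 3 the highest, with overlap between. The means were 123 ± 24.3 in AAV8-Irisin-FLAG mice and 136 ± 27.6 in AAV8-GFP mice, a log2 difference of -0.15 (SE 0.16, 95% interval -0.49 to 0.19, limma adjusted p = 0.945). Relative to the microglial list the difference was -0.056 (interval -0.32 to 0.20, exact p = 0.643).

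C5ar1 (ENSMUSG00000049130.6, chromosome 7, 16246743 to 16259540, minus strand) is the receptor for the fragment of C5 and had the lowest median level per length of the 9. It had 25.9, 30.8, 25.3, 26.3 and 42.1 normalised counts in AAV8-Irisin-FLAG mice and 30.5, 20.7, 46.7, 21.6 and 47.9 in AAV8-GFP mice. AAV8-GFP mice held both the lowest 2 and the highest 2 values. With means of 30.1 ± 7.05 in AAV8-Irisin-FLAG mice and 33.5 ± 13.2 in AAV8-GFP mice, the log2 difference was -0.088 (SE 0.26, 95% interval -0.64 to 0.46, limma adjusted p = 0.971). It changed sign without AAV8-GFP mouse 3 (0.050) and without AAV8-GFP mouse 5 (0.059). Neutrophils and monocytes also carry this receptor. Of their marker genes, 8 of 10 were under 10 normalised counts in every mouse, with Retnlg and Elane at 0 throughout. The remaining ones were higher: Cxcr2 averaged 76.3 ± 18.1 and 83.5 ± 6.19, and Ly6c2 24.15 ± 6.81 and 22.0 ± 4.87, in AAV8-Irisin-FLAG and AAV8-GFP mice. The summed level was 96.9 to 130 in AAV8-Irisin-FLAG mice and 98.3 to 126 in AAV8-GFP mice. The part of those cells in the C5ar1 values was not tested.

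Itgam (ENSMUSG00000030786.18, chromosome 7, 128062640 to 128118491, plus strand) encodes CD11b, the alpha chain of complement receptor 3, which takes up targets tagged with fragments of C3. It had 1156, 1163, 1085, 1041 and 974 normalised counts in AAV8-Irisin-FLAG mice and 915, 1130, 1340, 1060 and 1259 in AAV8-GFP mice. All AAV8-Irisin-FLAG values lay within the AAV8-GFP range. Means were 1084 ± 79.7 in AAV8-Irisin-FLAG mice and 1141 ± 167 in AAV8-GFP mice, with a log2 difference of -0.064 (SE 0.089, 95% interval -0.26 to 0.13, limma adjusted p = 0.953). Its beta chain Itgb2 averaged 302 ± 36.6 and 338 ± 58.7 in AAV8-Irisin-FLAG and AAV8-GFP mice (log2 difference -0.15, limma adjusted p = 0.942), and Itgam per length was 2.19 ± 0.16 and 2.06 ± 0.17 of Itgb2 in those groups. The annotation has a read-through gene on the same strand, Gm49368, which shares 66.3% of the 50-base windows of Itgam, so some Itgam reads could have been left uncounted or counted there. It was listed at 0 to 24.8 normalised counts, with the 2 highest values in AAV8-GFP mouse 3 (24.8) and AAV8-Irisin-FLAG mouse 5 (16.4).

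**Figure D3:**
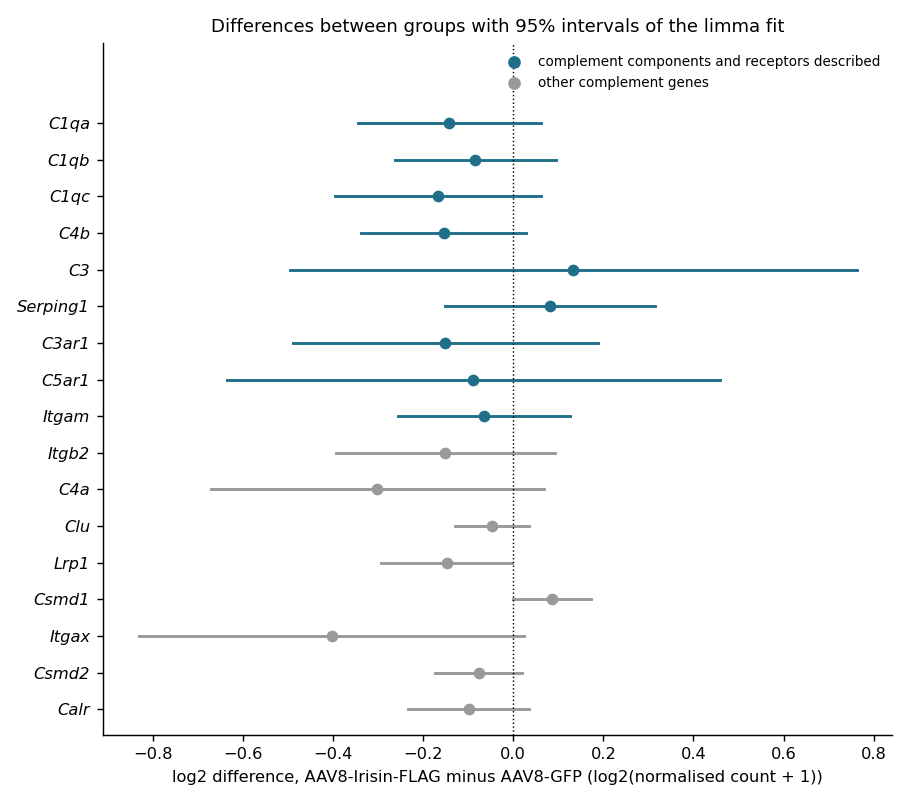
Log2 differences, AAV8-Irisin-FLAG minus AAV8-GFP (x axis), with 95% intervals of the limma fit, for the 9 complement genes (blue) and 8 other genes of the pathway or linked to it (grey). Every interval of the 9 genes spans 0, and those of C3 (-0.50 to 0.76) and C5ar1 (-0.64 to 0.46) are the widest among them.

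A wider list held 58 further genes, of the cascade or linked to it as regulators or receptors, called pathway genes here. Of these, 39 passed the filter, 15 with a higher and 24 with a lower mean in AAV8-Irisin-FLAG mice. Their median log2 difference was -0.012. None passed the adjusted threshold in limma, 1 had an unadjusted p under 0.05, and the groups overlapped for all 39. By role, 5 of 9 tested genes of initiation were higher and 4 lower, both tested genes of the alternative pathway were lower, as were both of the terminal pathway (C7 and C8g). Among regulators 8 of 17 were higher and 9 lower, and among receptors 2 of 9 were higher and 7 lower. C1rb, Mbl1, Cfd and C9 were listed at 0 in every mouse. Lrp1, an endocytic receptor for C1q-tagged material among many other ligands, was the gene with the unadjusted p under 0.05 (0.0459). Lrp1 averaged 21856 ± 1121 normalised counts in AAV8-Irisin-FLAG mice and 24344 ± 3151 in AAV8-GFP mice, with 4 of 5 AAV8-Irisin-FLAG mice below every AAV8-GFP mouse, a log2 difference of -0.15 (SE 0.068), a limma adjusted p of 0.942 and an exact p of 0.0635. Without AAV8-GFP mouse 1, at 29858, the Lrp1 difference was -0.072.

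Of the pathway genes of smallest unadjusted p, the others were also short of the threshold, C4a among them with the values given above. Csmd1, a membrane protein that restrains complement on neurons, averaged 3762 ± 199 in AAV8-Irisin-FLAG mice and 3542 ± 110 in AAV8-GFP mice (log2 difference 0.086). Csmd2, its relative, averaged 2668 ± 126 and 2814 ± 151 in AAV8-Irisin-FLAG and AAV8-GFP mice (-0.076). Itgax, the alpha chain of complement receptor 4 and a gene of plaque-associated microglia, averaged 124 ± 37.9 in AAV8-Irisin-FLAG mice and 162 ± 38.5 in AAV8-GFP mice (-0.40). Calr, calreticulin, a ligand and partner of C1q at the cell surface, averaged 9308 ± 1032 and 9927 ± 349 in those groups (-0.099). Clu, clusterin, a soluble regulator of the terminal pathway named whatever its p, averaged 25200 ± 810.5 in AAV8-Irisin-FLAG mice and 26077 ± 1415 in AAV8-GFP mice (-0.048). The limma adjusted p was 0.942 for each of these genes.

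Across the 10 mice, 36 pairs of the 9 genes were correlated on the log2 scale. After Benjamini-Hochberg adjustment over the 36, 9 pairs passed by Pearson's r with a permutation p, and 9 by Spearman's rho, and all 9 coefficients were positive. C1qa and C1qb had r = 0.945 and rho = 0.952 (adjusted permutation p = 0.00288 and 0.00264), and r = 0.947 without the 2 mice farthest from the median. C1qa with C1qc had r = 0.918 and rho = 0.939, and C1qb with C1qc r = 0.951 and rho = 0.915. C4b went with each chain, at r = 0.877 with C1qa, 0.840 with C1qb and 0.778 with C1qc. Without the 2 mice farthest from the median of the C1q chain, r was 0.776, 0.830 and 0.806 in that order. The exact permutation p values were 0.034, 0.015 and 0.020, not adjusted over the pairs. C3ar1 went with C1qb at r = 0.872 (rho = 0.818), with C1qc at 0.847 (rho = 0.818) and with C1qa at 0.784 (rho = 0.806). The C1qc and C3ar1 relation depended in part on the 2 farthest mice, since r was 0.628 without them (exact permutation p = 0.104). C4b and C3ar1 did not pass (r = 0.637, adjusted permutation p = 0.152).

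The same sign held inside each group for these pairs, with C1qa and C1qb at r = 0.963 among AAV8-Irisin-FLAG mice and 0.955 among AAV8-GFP mice, and C1qa and C4b at 0.707 and 0.978 in those groups, though each rests on 5 mice and has no test. C3 had a negative r with all 8 other genes, from -0.570 with C3ar1 to -0.046 with Serping1, and none passed. That sign did not hold throughout by other measures. The rho of C3 ran from -0.370 with C3ar1 to 0.006 with C1qc and C4b. Without the 2 farthest mice its r ran from -0.244 with C1qb to 0.564 with C1qc. Itgam had r between 0.461 and 0.544 with the C1q chains, none past the threshold. C5ar1 had r = 0.379 with C1qa over all mice, but -0.695 among AAV8-Irisin-FLAG mice and 0.875 among AAV8-GFP mice, a contrast that was not tested. All values of a mouse come from 1 library and share its scaling. Leaving out each mouse in turn left 6 to 14 pairs past the threshold, with 14 when AAV8-GFP mouse 1 was left out.

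**Figure D4:**
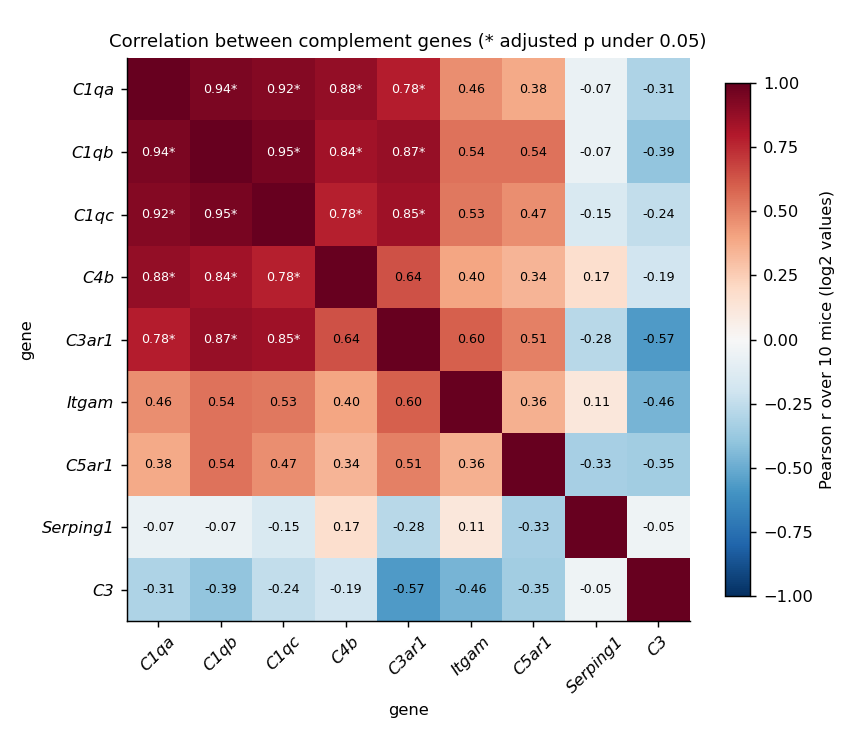
Pearson's r between the 9 complement genes over 10 mice, from log2(normalised count + 1), as a colour scale with r printed in each cell. C1qa, C1qb, C1qc, C4b and C3ar1 form a block of positive values from 0.637 to 0.951, and the row of C3 is negative throughout.

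Each of the 9 genes was also set beside 11 lists of cell type markers, as mean log2 levels, which gave 99 correlations over the 10 mice. By Pearson's r, 12 passed after adjustment over the 99, all positive, whereas by Spearman's rho 2 passed, those of C1qa and C1qc with the plaque-associated list. With the microglial list, r was 0.810 for C1qa (rho = 0.794), 0.869 for C1qb (rho = 0.745), 0.905 for C1qc (rho = 0.830), 0.885 for C3ar1 (rho = 0.867) and 0.800 for Itgam (rho = 0.782), with adjusted permutation p from 0.0151 to 0.0469. Without the 2 mice farthest from the median, r was lower for each: 0.684 for C1qa, 0.711 for C1qb, 0.770 for C1qc, 0.708 for C3ar1 and 0.714 for Itgam. The exact permutation p values were 0.0616, 0.0523, 0.0269, 0.0493 and 0.0452 in that order, with fewer mice in each test. These relations thus depended in part on those mice. With the plaque-associated list, r was 0.908 for C1qa (rho = 0.915), 0.847 for C1qb (rho = 0.842), 0.910 for C1qc (rho = 0.927) and 0.841 for C4b (rho = 0.745). C4b had r = 0.407 with the astrocyte list, Itgam had 0.827 with it, and C5ar1 had 0.382 with the microglial list, of which that of Itgam passed (adjusted permutation p = 0.0292, and r = 0.570 with an exact permutation p of 0.137 without the 2 farthest mice). These calls changed when 1 mouse was left out, which also leaves fewer mice to test. The number that passed was 2 without AAV8-GFP mouse 3, 4 without AAV8-Irisin-FLAG mouse 1, 6 without AAV8-Irisin-FLAG mouse 4, 5 without AAV8-Irisin-FLAG mouse 5 and 7 without AAV8-GFP mouse 5. For C1qa and for Itgam with the microglial list, the call was lost in 9 of 10 such omissions, all but that of AAV8-GFP mouse 1, with r from 0.739 to 0.956 for C1qa and from 0.671 to 0.882 for Itgam.

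C3 and Serping1 went with other lists. C3 had r = 0.892 and rho = 0.855 with oligodendrocyte genes (adjusted permutation p = 0.0151 and 0.0671). Without the 2 mice farthest from the median, r was 0.575 (exact permutation p = 0.153), so the relation depended in part on those mice. The call was lost without AAV8-GFP mouse 3 alone (r = 0.773, adjusted permutation p = 0.143). Serping1 had r = 0.844 and rho = 0.770 with meningeal fibroblast genes (adjusted permutation p = 0.0168 and 0.116), and r = 0.669 without the 2 farthest mice (exact permutation p = 0.0716). That call was lost without AAV8-Irisin-FLAG mouse 1 (r = 0.812, adjusted permutation p = 0.0533) or AAV8-Irisin-FLAG mouse 4 (r = 0.786, adjusted permutation p = 0.0844). With choroid plexus genes neither gene passed (C3 r = 0.510, Serping1 r = 0.647).

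A list of 10 genes of ependymal cells, the ciliated cells that line the ventricles, was set beside C3 after the genes nearest to C3 had been seen, so its values are a description with no test. Over the 10 mice r was 0.904 and rho 0.830, with r from 0.810 to 0.925 on leaving out 1 mouse and 0.664 without the 2 farthest mice. AAV8-GFP mouse 3, the lowest in C3, had the lowest summed ependymal level, 668, against 877 to 1261 in AAV8-Irisin-FLAG mice and up to 1133 in the other AAV8-GFP mice. The part of ventricular or meningeal tissue in the levels of C3 and Serping1 was not tested.

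Between the groups, 10 of 10 oligodendrocyte, 9 of 10 meningeal fibroblast, 8 of 10 ependymal and 8 of 8 tested choroid plexus genes had the higher mean in AAV8-Irisin-FLAG mice, none past the threshold. Of the remaining lists, 8 of 12 astrocyte, 7 of 10 endothelial and mural and 5 of 5 red cell genes had the lower mean, and 6 of 10 neuronal and 3 of 4 tested border macrophage genes the higher, again with none past it.

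**Figure D5:**
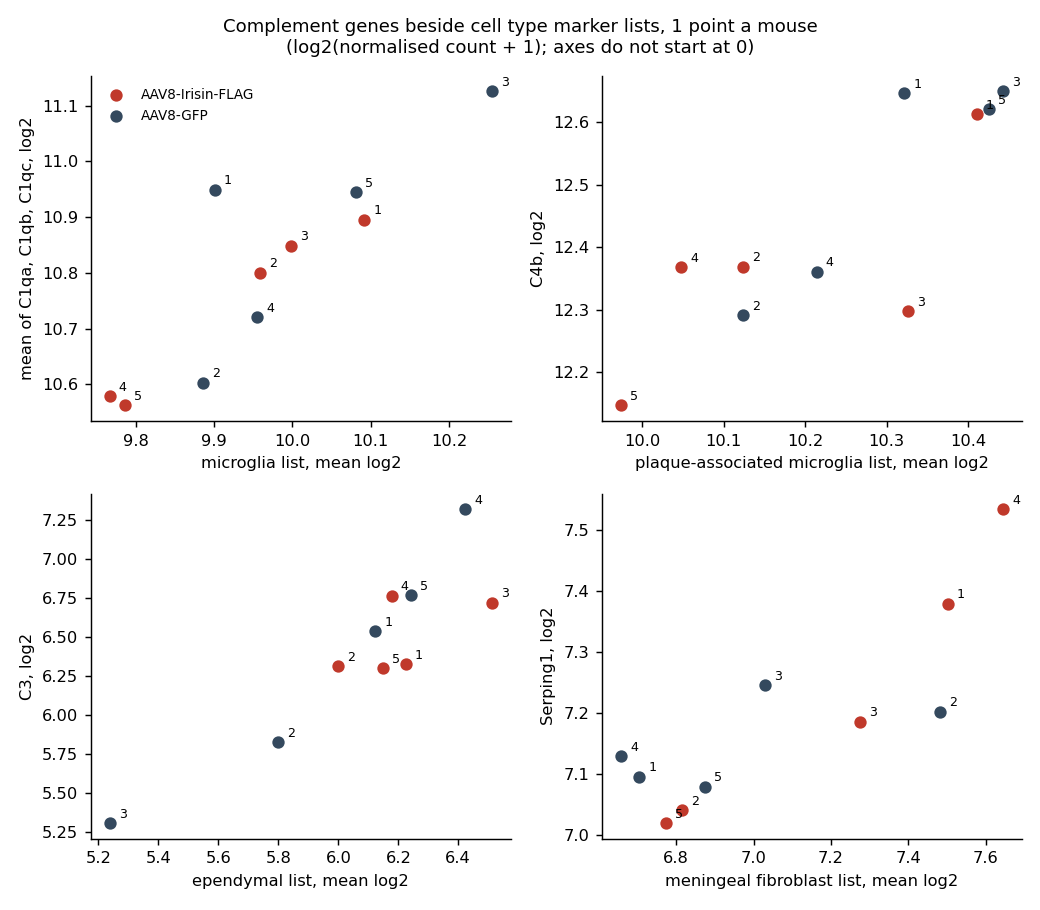
Log2 levels of complement genes (y axes) against mean log2 levels of marker lists (x axes) in 10 mice, coloured by group and numbered by mouse. C1q runs with the microglial list, C3 with the ependymal list (r = 0.904) and Serping1 with the meningeal fibroblast list (r = 0.844). Without the 2 farthest mice, r was 0.664 for C3 and 0.669 for Serping1. The ependymal list was chosen after the genes nearest to C3 were seen. AAV8-GFP mouse 3 lies at the low end of the C3 panel.

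As a description with no test, the genes whose log2 pattern over the 10 mice was nearest to that of C1q were looked up among all genes tested. For the mean of the 3 chains they were Tyrobp (r = 0.981), the adaptor of microglial receptors, the lysosomal protease Ctsd (0.972), Carmil3 (0.952), the phagocyte gene Cd68 (0.952), the lipid receptor Trem2 (0.943), the protease Ctsz (0.931), the vitamin B12 carrier Tcn2 (0.928) and Gfap (0.928), the intermediate filament of reactive astrocytes. All 8 had a lower mean in AAV8-Irisin-FLAG mice, with log2 differences from -0.22 for Trem2 to -0.044 for Tcn2. They were chosen for following C1q over the mice of both groups. A direction shared with C1q is thus largely built into the choice and is no separate observation. Leaving out a mouse kept 4 to 6 of the 8. For C3 the nearest were Ccdc170 (0.941), Ak7 (0.937), Dapk1 (0.933) and Dynlrb2 (0.904), and for C4b they were Hlx (0.922), Gdpd2 (0.919), Lilrb4a (0.913) and Tdgf1 (0.910). C3ar1 was nearest to Ppp1r18 (0.931), B2m (0.924), Unc93b1 (0.913) and Mapkapk5 (0.913), and C5ar1 to Wnt1 (0.939), Mdn1 (0.936), Cep112 (0.929) and Aldh1l1 (0.900). Itgam was nearest to Msn (0.973), which encodes the membrane linker moesin, and to Parva (0.921), Robo1 (0.921) and Pde3b (0.919). Serping1 was nearest to Zic1 (0.966), a transcription factor gene, followed by N4bp2l1 (0.877), Ercc8 (0.877) and Tkfc (0.872).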

How the data were processed

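RNA from the hippocampi of 10 mice was sequenced from oligo(dT)-selected libraries, 1 per mouse, 5 in each group; the labels name separate mice. Per the submitters' processing notes, reads were demultiplexed with bcl2fastq 2.17, build mm10 was used and DESeq2 was run; no source used here names the aligner, the counting tool or the use of strand. The deposited values are DESeq2 normalised counts, a signal scaled by the authors between libraries. Between 49.0% and 71.5% of the values up to 20 were whole multiples of what 1 read is worth (within 0.1 read), too few to recover whole reads, so no count test was run. The table holds 26 symbols turned into dates, of which 23 were tested. Counting error and the number of mice limit the precision.

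Genes with at least 10 normalised counts in at least 5 libraries were kept (17556). Values were tested as log2(value + 1) with limma 3.58.1 (R 4.3.3; lmFit and eBayes with trend, group as the only factor, two-sided) and Benjamini-Hochberg adjustment over all genes tested at a threshold of 0.05, a procedure tested on simulated data. Fold changes are on that scale, which understates changes of low genes. Single values were tested by exact permutation of the group labels (252 assignments), intervals relative to the microglial list invert that test, and correlations used 100000 resamples, adjusted within their family. Lengths and positions are from GENCODE M21, promoters from RefSeq. The 9 genes, the pathway and marker lists and the tests were chosen with earlier results of these data known; the ependymal list was added after the genes nearest to C3 were seen and is described with no test of correlation. Named besides the 9 were Itgb2, C4a and Clu (a further gene that the rule named is not reported here), the 6 tested pathway genes of smallest unadjusted p, any pathway gene whose groups did not overlap, and the genes of highest r with C1q (8) and with each other gene (4), leaving out predicted genes, accessions and dates. Alternatives varied the pseudocount, filter, scaling, limma settings, replicate block and mice included.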

Additional observations from a re-analysis of the deposited data

Results flagged for a closer look

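For the genes, relative levels and marker sums described, 84 sets of 5 mice were examined for a mouse far from the rest of its group, by the gap to its nearest neighbour as a share of the whole range (Dixon's critical value 0.71). Of these, 5 stood out, where chance alone marks about 1 in 20. Lrp1, the endocytic receptor, was at 29858 normalised counts in AAV8-GFP mouse 1, against 22070 to 23595 in the other AAV8-GFP mice (gap 0.804 of the range). Gm49368, the read-through gene over Itgam, was at 16.4 in AAV8-Irisin-FLAG mouse 5, against 0 to 0.868 in the other AAV8-Irisin-FLAG mice, and at 24.8 in AAV8-GFP mouse 3, against 0 to 0.844 in the other AAV8-GFP mice. The summed choroid plexus level was 3036 in AAV8-Irisin-FLAG mouse 4, against 1135 to 1306 in the other AAV8-Irisin-FLAG mice. The summed level of 5 red cell genes was 3211 in AAV8-Irisin-FLAG mouse 2, against 1669 to 2018 in the other AAV8-Irisin-FLAG mice.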

How the results depend on the processing

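With every gene above 0 kept, limma called 1 gene in place of 0, Gm49383, at 0 in all 5 AAV8-Irisin-FLAG mice and 2.66 to 13.9 in AAV8-GFP mice, and 1256 genes had an unadjusted p under 0.05. The adjusted p of each of the 9 genes stayed above the threshold under every alternative in which it was tested; C5ar1 was not tested under the stricter filter. Leaving out AAV8-Irisin-FLAG mice 4 and 5, the lowest in C1qa, turned the sign of C3ar1 (0.018), Itgam (0.0043) and Calr (0.013) and, relative to the microglial list, of C1qb (-0.0011), C3ar1 (0.017) and C5ar1 (-0.20), and left 1 correlation with a marker list. As said above, leaving out low mice raises the means of their group by construction. Relative to that list, C5ar1 was -0.0040 with quantile normalisation, and with 5 core microglial genes C1qb was -0.018 and C5ar1 -0.022. Leaving out 1 mouse at a time gave log2 differences from -0.13 to 0.38 for C3, -0.23 to 0.059 for C5ar1, -0.14 to -0.021 for C1qb, -0.24 to -0.033 for C3ar1, -0.14 to -0.0033 for Itgam and 0.0060 to 0.14 for Serping1, and from -0.25 to -0.085 for C1qa, C1qc and C4b. Relative to the microglial list it gave -0.086 to 0.016 for C1qa, -0.016 to 0.055 for C1qb, -0.13 to -0.034 for C1qc, -0.097 to 0.023 for C3ar1, -0.15 to 0.14 for C5ar1 and -0.017 to 0.063 for Itgam. Correlated pairs among the 9 genes ranged from 6 to 14, and correlations with marker lists from 2 to 15. The cause of these changes was not tested. Mouse numbers did not pair the groups (correlations of deviations from -0.089 to 0.030, 1 of 5 mice best with its own number). With the replicate block, 0 genes were called, 862 had an unadjusted p under 0.05, and it changed no call of a single gene in limma. C5ar1, at 20.7 to 47.9 normalised counts, rests on few reads.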
